A study of Mus musculus with 16 samples.

Results

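Imprinted genes are transcribed from the copy of 1 parent. The 10 genes described here are transcribed mainly from the paternal copy: the ligands Igf2 and Dlk1, the membrane proteins Nnat and Sgce, and Peg10, Mest, Peg3, Nap1l5, Peg12 and Snrpn. They were found by their gene names in the scanner files, which gave 16 probes for the 10 genes, of 18281 genes tested in all. The arrays held RNA of mouse embryonic stem cells of the line E14. Their medium contained leukemia inhibitory factor, which holds such cells undifferentiated. Each derived line stably expressed 1 lentiviral short hairpin RNA, aimed at Sirt1 in sh-SIRT1 cells and at no stated gene in sh-Control cells; SIRT1 is a deacetylase that uses NAD. Both lines received 20 nM retinoic acid (RA), a vitamin A derivative, or its vehicle ethanol for 2 days. The groups were sh-SIRT1 RA (n = 6 arrays), sh-Control RA (n = 4), sh-SIRT1 vehicle (n = 3) and sh-Control vehicle (n = 3). The series title names the question, whether SIRT1 deficiency enhances differentiation under RA. An effect of the hairpin and a property of the particular line that carries it cannot be told apart.

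At an imprinted domain, DNA methylation laid down in 1 germ line marks a control region, and the mark is kept in somatic cells while most other methylation is erased after fertilisation. Genes of 1 domain often share such a control region, so that a paternally expressed protein-coding gene can lie beside a maternally expressed noncoding RNA, as Igf2 lies beside H19 and Dlk1 beside Meg3. Several of these genes act in growth of the embryo and placenta and are switched on during differentiation. Imprints of embryonic stem cells in culture are known to be unstable. The arrays measure the total RNA of a gene and do not separate the 2 parental copies.

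Levels are log2 of the processed intensity relative to the 75th percentile of the same array, so a level of 0 is the brightness of that percentile. On these arrays 60.3 to 68.6% of spots were well above background, and that percentile lay between 684 and 1155 intensity units. Their number limits the precision. The targeted gene Sirt1 had levels of 0.92 to 1.89 on the 9 sh-SIRT1 arrays and 3.28 to 3.85 on the 7 sh-Control arrays. All 17 pluripotency markers tested, of 18 listed, were well above background on every array. The design text speaks of 3 pairs with duplicates without saying which arrays belong together, so the p-values measure a spread that may be technical in part.

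Arrays within the RA groups fell apart, and several results below rest on this. Over all genes, the standard deviation (SD) of the log2 difference between sh-Control RA arrays 3 and 4 was 0.214, against 0.633 to 0.736 for every other pair of that group. Among the sh-SIRT1 RA arrays it was 0.324 between arrays 1 and 2, 0.269 to 0.363 among arrays 3 to 6, and 0.528 to 0.616 between these sets. The Y-linked genes Ddx3y and Eif2s3y were at -6.91 to -8.12 and at -2.51 to -2.89 on sh-Control RA arrays 2, 3 and 4. On array 1 of that group they were at 0.23 and 1.98, and over the other 3 groups they lay between 0.33 and 1.60 and between 0.98 and 2.16. Sh-Control RA arrays 2 to 4 thus stood apart from all other arrays in genes of the Y chromosome, which a male line such as E14 carries.

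More members were called for RA than for the hairpin, and in each comparison most of those called were higher. Of the 10 members, 5 rose and 1 fell in sh-SIRT1 cells relative to sh-Control cells under RA, where 20.3% of all genes were called in either direction, 8.59% higher and 11.7% lower. In vehicle 2 rose and 1 fell, against 8.62% of all genes called, 4.41% higher and 4.21% lower. With RA, 7 members rose and 1 fell in sh-SIRT1 cells (58.2% of all genes called, 23% higher and 35.3% lower). In sh-Control cells RA raised 5 and lowered 2 (46.8% called, 19.7% higher and 27.2% lower). The median log2 difference of the members was 1.57 for the hairpin under RA and 0.44 in vehicle, against -0.04 and -0.01 over all genes. For RA it was 1.73 in sh-SIRT1 cells and 1.41 in sh-Control cells, against -0.13 and -0.14 over all genes. A probe was tested only if some group showed it clearly on each of its arrays. Nap1l5 and Peg10, both counted as higher with the hairpin under RA, met this only in sh-SIRT1 groups. Mest, counted as higher with RA, met it only in sh-Control RA. Nap1l5 lay at background in sh-Control cells, and Mest lay near it in vehicle. The counts and medians of the members carry this selection, and all genes passed the same filter. The 2 RA comparisons share no arrays with each other but share them with the hairpin comparisons. A gene was called at an adjusted p under 0.05 in limma's fit over all 16 arrays and all genes, with Benjamini-Hochberg adjustment. The fit shares 1 spread per gene over the 4 groups, so a wide RA group also widens the SE of the vehicle comparison.

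**Figure D1:**
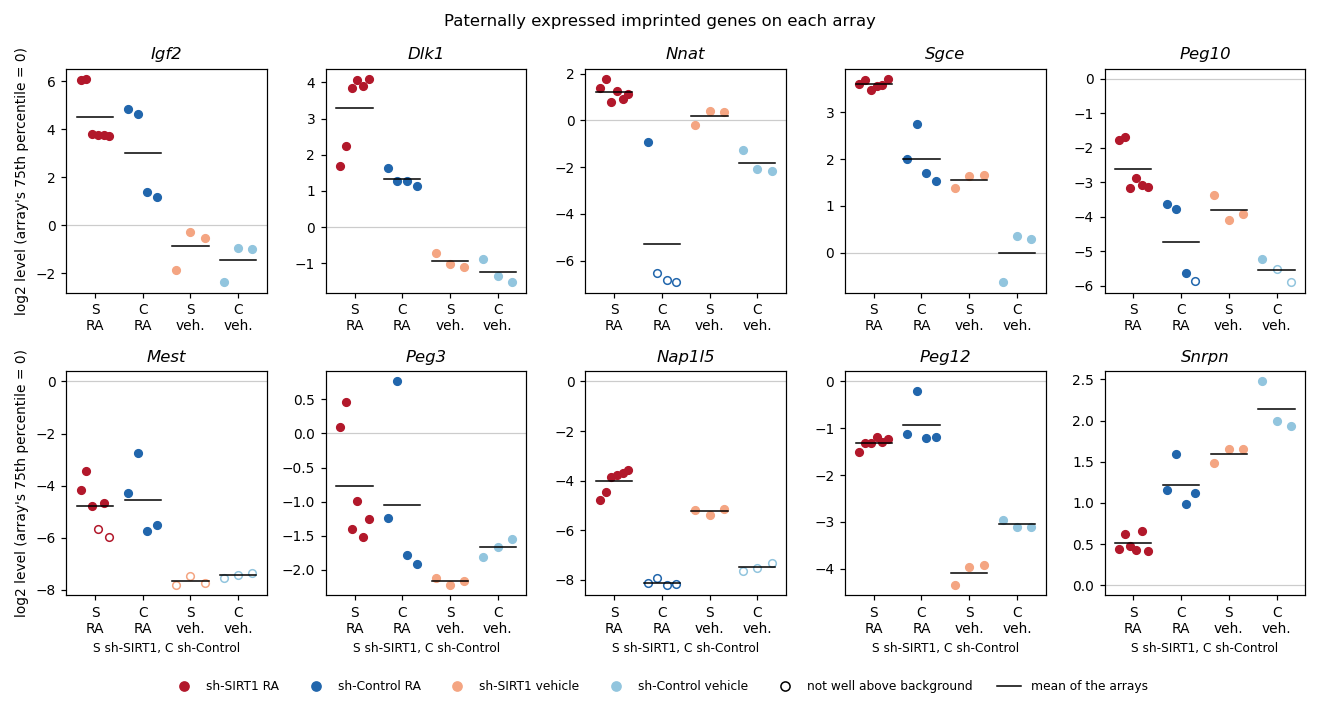
Log2 level (relative to the array's 75th percentile) of each member on each array, with a point per array, a line at the mean of each group, and open points for signals not well above background. Nap1l5 is open on all sh-Control arrays and filled on all sh-SIRT1 arrays, and the Igf2 points of both RA groups fall into a high set and a low set.

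**Figure D2:**
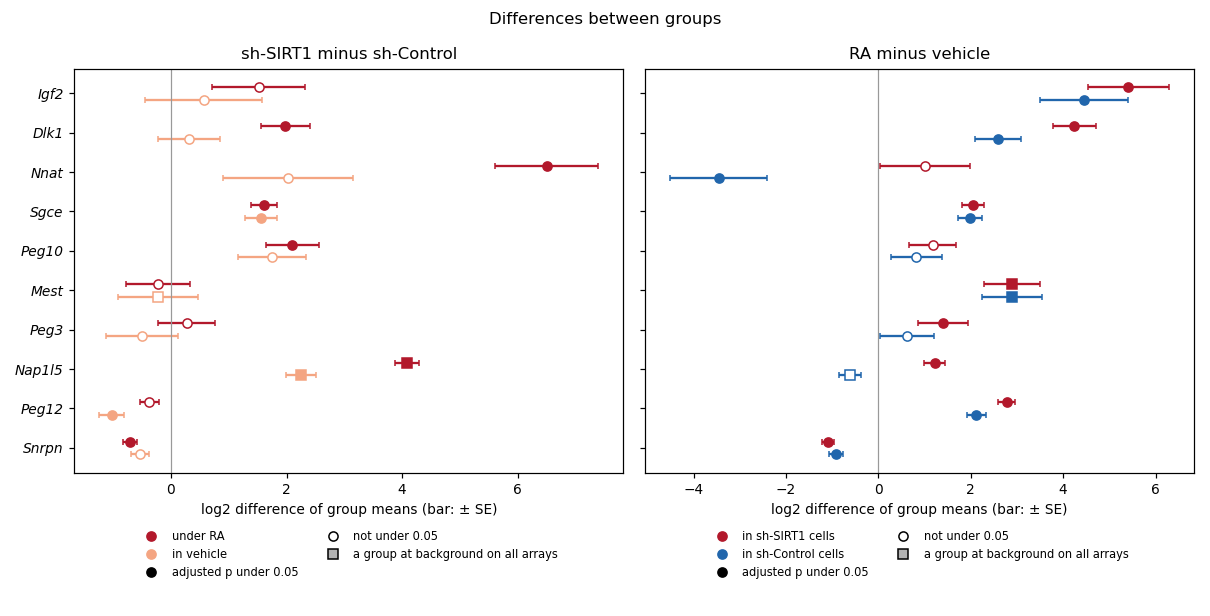
Log2 difference between group means for each member, with the standard error as a bar, for sh-SIRT1 minus sh-Control on the left and RA minus vehicle on the right. Filled markers have an adjusted p under 0.05, and squares mark comparisons with a group not well above background on any array, where the measured difference is no bound. All members but Peg3 lie on the same side of 0 in both hairpin comparisons, with filled markers in both for Sgce and Nap1l5. Igf2, Dlk1, Sgce, Mest and Peg12 lie above 0 with filled markers under RA in both lines. Peg10 and Peg3 also lie above 0 in both lines, but not with filled markers in both.

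Igf2, the fetal growth factor that signals through the IGF1 receptor, showed the highest RA differences of the members in both lines. Its probe at chr7:139078075-139078135 (mm7, minus strand) was spotted 10 times per array, and the SD of the log2 signal over these spots was 0.028 to 0.070. Its log2 levels were 6.04, 6.09, 3.77, 3.74, 3.76 and 3.73 on sh-SIRT1 RA arrays 1 to 6, and 4.82, 4.62, 1.38 and 1.18 on sh-Control RA arrays 1 to 4. In vehicle they were -1.86, -0.28 and -0.52 in sh-SIRT1 cells and -2.38, -0.96 and -1.01 in sh-Control cells. All RA arrays lay above all vehicle arrays, but within each RA group arrays 1 and 2 lay more than 2 log2 units above the rest, so the RA groups overlapped. Igf2 rose 42.5-fold with RA in sh-SIRT1 cells (log2 difference 5.41 ± 0.88 SE, limma adjusted p = 1.24e-04) and 21.9-fold in sh-Control cells (4.45 ± 0.95, adjusted p = 0.00172).

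Between the lines, the Igf2 difference did not pass the test, at 1.52 ± 0.80 under RA (adjusted p = 0.204) and 0.57 ± 1.02 in vehicle (adjusted p = 0.788). With the replicate number as a block, which compares arrays of the same number, it was 1.91 under RA and passed (limma adjusted p = 0.00280). Within slides the RA difference was 2.35, 0.86 and 0.07 on slides 1, 2 and 4. With array 1 as the only sh-Control RA array it was -0.29. The difference between the lines in the size of the RA effect was 0.96 ± 1.30 (adjusted p = 0.731).

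H19, the maternally expressed noncoding RNA next to Igf2, split along the same arrays. Its log2 levels were -0.23, 0.44, -2.40, -4.25, -2.74 and -3.17 in sh-SIRT1 RA cells and -0.56, -1.46, -4.37 and -4.40 in sh-Control RA cells. In vehicle it lay between -4.86 and -4.39 in sh-SIRT1 cells and between -4.43 and -3.71 in sh-Control cells. H19 was thus above its vehicle range on sh-Control RA arrays 1 and 2 and on all 6 sh-SIRT1 RA arrays, and within it on sh-Control RA arrays 3 and 4. It rose with RA in sh-SIRT1 cells (2.53 ± 1.01, adjusted p = 0.0430). In sh-Control cells the difference was 1.48 ± 1.08 (adjusted p = 0.275). The downstream neighbour Mrpl23, a mitochondrial ribosomal protein gene outside the imprint, fell by 0.43 and 0.22 with RA in sh-SIRT1 and sh-Control cells.

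Dlk1, a transmembrane ligand related to those of Notch that restrains differentiation, was higher under RA in both lines and higher in sh-SIRT1 than in sh-Control cells under RA. Its probe at chr12:106981689-106981748 (mm7, plus strand) gave log2 levels of 1.69, 2.23, 3.84, 4.05, 3.90 and 4.10 on the sh-SIRT1 RA arrays and of 1.62, 1.28, 1.27 and 1.14 on the sh-Control RA arrays. The vehicle levels were -0.71, -1.01 and -1.10 in sh-SIRT1 cells and -0.89, -1.35 and -1.53 in sh-Control cells. Each sh-SIRT1 RA array lay above each sh-Control RA array, but arrays 1 and 2 by little, and these were the arrays highest in Igf2. Dlk1 was 3.94-fold higher in sh-SIRT1 than in sh-Control cells under RA (log2 difference 1.98 ± 0.42, adjusted p = 0.00519). With RA it rose by 4.25 ± 0.47 in sh-SIRT1 cells (adjusted p = 3.82e-06) and by 2.58 ± 0.50 in sh-Control cells (adjusted p = 8.73e-04).

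The hairpin difference of Dlk1 under RA was larger on sh-SIRT1 RA arrays 3 to 6. Without arrays 1 and 2 it was 2.65 (adjusted p = 1.62e-06), and without arrays 3 to 6 it was 0.64 and no longer passed (adjusted p = 0.113). With array 1 as the only sh-Control RA array it was 1.68 and did not pass (adjusted p = 0.198), and within slides 1, 2 and 4 it was 2.78, 2.69 and 1.28. The lines' RA effects on Dlk1 differed by 1.66 ± 0.68, which did not pass (adjusted p = 0.188), and by 2.33 without sh-SIRT1 RA arrays 1 and 2 (adjusted p = 5.53e-04). In vehicle the hairpin difference was 0.32 ± 0.54 (adjusted p = 0.775).

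The maternally expressed RNAs of the Dlk1 domain moved the other way. Meg3, Rian and Mirg, noncoding RNAs transcribed downstream of Dlk1, fell with RA by 1.33, 1.46 and 2.15 in sh-SIRT1 cells (adjusted p = 4.43e-05, 2.23e-04 and 1.90e-06). In sh-Control cells they fell by 1.83, 1.66 and 1.77 (adjusted p = 9.82e-06, 2.62e-04 and 4.01e-05). Meg3 had log2 levels of 3.83 to 4.21 in sh-SIRT1 RA cells and of 3.27, 3.75, 2.71 and 2.68 in sh-Control RA cells, against 5.24 to 5.35 in sh-SIRT1 vehicle and 4.77 to 5.16 in sh-Control vehicle cells. Its RA groups did not overlap, and Meg3 was 0.88 ± 0.17 higher in sh-SIRT1 than in sh-Control cells under RA (adjusted p = 0.0033), the same direction as Dlk1. Dio3, a paternally expressed deiodinase gene at the far end of the domain, rose with RA by 3.71 ± 0.83 in sh-SIRT1 and 2.83 ± 0.90 in sh-Control cells (adjusted p = 0.00153 and 0.0186).

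**Figure D3:**
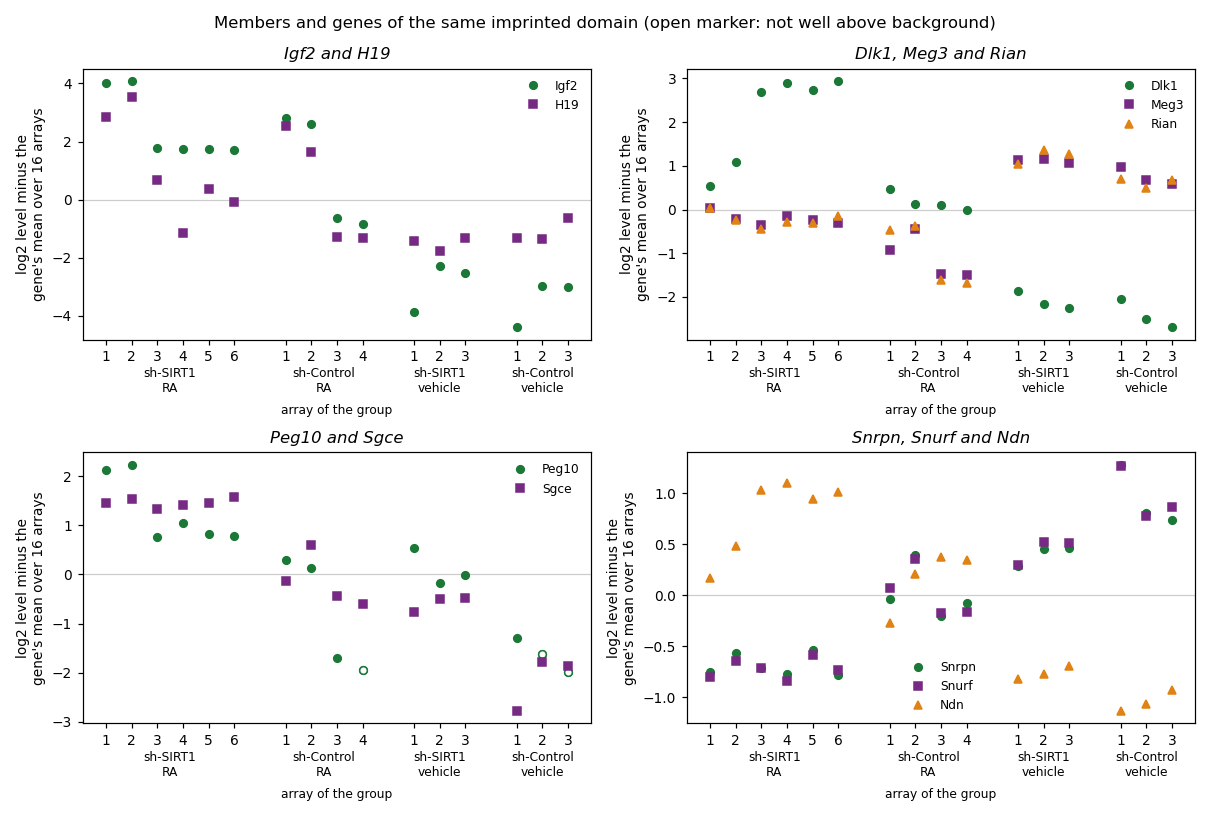
Log2 level of members and of genes in the same domain on each array, as the difference from the gene's own mean over the 16 arrays, with open markers for signals not well above background. H19 is high on the RA arrays where Igf2 is high, Dlk1 lies on the other side of 0 from Meg3 and Rian on all vehicle arrays, and the Snrpn and Snurf markers nearly coincide.

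Nnat, a small membrane protein (neuronatin) of the endoplasmic reticulum that lies inside an intron of Blcap, was higher in sh-SIRT1 than in sh-Control cells on every array of each treatment. Its probe at chr2:157303132-157303191 (mm7, plus strand) gave log2 levels of 0.80 to 1.78 with a median of 1.19 in sh-SIRT1 RA cells. In sh-Control RA cells it was at -0.93 on array 1 and at -6.51, -6.81 and -6.93, not well above background, on arrays 2 to 4. In vehicle the levels were -0.20, 0.40 and 0.37 in sh-SIRT1 cells and -1.27, -2.06 and -2.18 in sh-Control cells. The loss of signal was seen on the same 3 sh-Control RA arrays as that of the Y-linked genes, and on no array of the other groups.

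Under RA the hairpin difference of Nnat was 6.50 ± 0.89 (adjusted p = 3.14e-04), with 1 of 4 sh-Control RA arrays above background. Against array 1 of sh-Control RA alone it was 2.14 and still passed (adjusted p = 0.00659), with that array assumed to vary like the other groups. Within slides 1, 2 and 4 it was 8.06, 7.63 and 2.18. The SE of every Nnat comparison comes from a spread shared by all 4 groups. The SD of Nnat was 2.92 in sh-Control RA cells, against 0.35 in sh-SIRT1 RA, 0.34 in sh-SIRT1 vehicle and 0.50 in sh-Control vehicle cells. Its p-values thus carry the split of sh-Control RA also where that group is not compared. In vehicle the groups did not overlap, but the difference of 2.03 ± 1.13 did not pass (adjusted p = 0.304), and it did with array 1 as the only sh-Control RA array in the fit (adjusted p = 0.00174).

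Nnat fell with RA in sh-Control cells by 3.46 ± 1.06 (adjusted p = 0.0154), which did not pass without sh-Control vehicle array 1 (adjusted p = 0.0575) or with normexp background correction at the 75th percentile (-1.08, adjusted p = 0.187). All 3 Y-linked genes tested fell there too. With array 1 alone the RA difference of Nnat in these cells was 0.91 (adjusted p = 0.103), and within slides 1 and 4 it was -5.54 and 1.25. In sh-SIRT1 cells it was 1.02 ± 0.98 and did not pass (adjusted p = 0.390), though the groups did not overlap. The share of the Y-linked signal or of the separate state of arrays 2 to 4 in the Nnat result was not tested. Blcap, the host gene, lay between 2.76 and 3.32 on all 16 arrays, and its hairpin difference did not pass, at -0.15 ± 0.08 under RA and -0.045 ± 0.099 in vehicle (the lower adjusted p = 0.194).

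**Figure D4:**
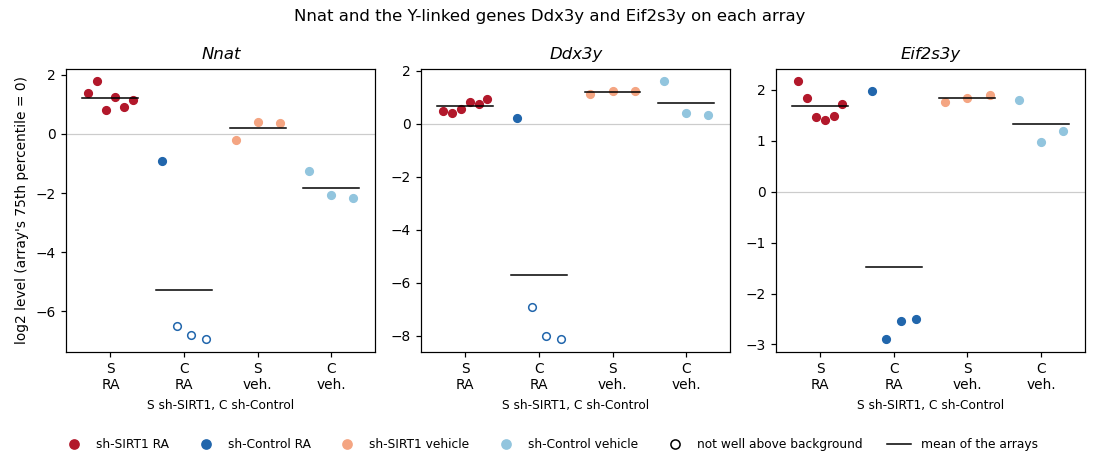
Log2 level of Nnat and of the Y-linked genes Ddx3y and Eif2s3y on each array, with a line at each group's mean and open points for signals not well above background. Sh-Control RA arrays 2 to 4 lie far below array 1 of the same group in all 3 genes, and the other groups hold no such array.

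Sgce, the epsilon-sarcoglycan of the dystrophin-associated complex in the cell membrane, and Peg10, a gene derived from a retrotransposon and needed for the placenta, are transcribed in opposite directions from 1 control region. Their probes lie at chr6:4627343-4627402 (minus strand) and chr6:4712753-4712812 (plus strand) in mm7. Both were higher in sh-SIRT1 than in sh-Control cells under RA. In vehicle Sgce was higher and the difference of Peg10 did not pass. Sgce had log2 levels of 3.48 to 3.72 with a median of 3.60 in sh-SIRT1 RA cells and of 2.00, 2.74, 1.70 and 1.54 in sh-Control RA cells. In vehicle it had 1.38, 1.64 and 1.66 in sh-SIRT1 cells and -0.64, 0.35 and 0.29 in sh-Control cells. Neither pair of groups overlapped, and the sh-SIRT1 vehicle arrays reached the lower sh-Control RA arrays.

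The hairpin difference of Sgce was 1.61 ± 0.22 under RA (3.06-fold, adjusted p = 3.00e-04) and 1.56 ± 0.28 in vehicle (2.94-fold, adjusted p = 0.00381). RA raised it by 2.05 ± 0.24 in sh-SIRT1 cells (adjusted p = 7.02e-06) and by 1.99 ± 0.26 in sh-Control cells (adjusted p = 3.48e-05). The RA effects of the lines differed by 0.05 ± 0.35 (adjusted p = 0.952). Within slides 1, 2 and 4 the hairpin difference under RA was 1.86, 1.46 and 1.66, and within slides 1 and 3 in vehicle it was 2.28 and 1.31. A further Sgce probe, whose target spans 2441 bases of the genome, gave differences within 0.13 of these in every comparison.

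Peg10 was dimmer. Its log2 levels were -1.79, -1.68, -3.15, -2.87, -3.09 and -3.13 in sh-SIRT1 RA cells and -3.62, -3.78, -5.62 and -5.85 in sh-Control RA cells, where array 4 was not well above background. In vehicle it was at -3.37, -4.09 and -3.93 in sh-SIRT1 cells and at -5.21, -5.52 and -5.90 in sh-Control cells, where array 1 alone was above background. The Peg10 probe thus entered the fit only through the sh-SIRT1 groups, where it was higher, and its hairpin p-values carry that selection. The hairpin groups of Peg10 did not overlap in either treatment, and within each RA group it was highest on arrays 1 and 2, as Igf2 was. It was 4.28-fold higher in sh-SIRT1 than in sh-Control cells under RA (2.10 ± 0.46, adjusted p = 0.00591), and against array 1 of sh-Control RA alone the difference was 1.00 and did not pass (adjusted p = 0.276). Nor did it pass with normexp background correction at the 75th percentile (0.87, adjusted p = 0.137). In vehicle the difference of 1.75 ± 0.58 did not pass (adjusted p = 0.0792), and with the replicate number as a block it did (limma adjusted p = 0.00383). With normexp background correction it was 0.51 at the 75th percentile and 0.71 with quantile scaling, and did not pass (adjusted p = 0.792 and 0.133).

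The RA differences of Peg10 did not pass in either line, at 1.18 ± 0.50 in sh-SIRT1 cells and 0.83 ± 0.54 in sh-Control cells (adjusted p = 0.0583 and 0.226). Across the 16 arrays the levels of Sgce and Peg10 had a Pearson correlation of 0.817, and their deviations from the group means one of 0.35; these arrays share their groups, and the values are a description. Other genes of this domain did not all follow. Calcr and Pon2, for the calcitonin receptor and a lactonase, are maternally expressed in some tissues and were 1.04 ± 0.20 and 1.30 ± 0.22 higher in sh-SIRT1 than in sh-Control cells in vehicle (adjusted p = 0.00532 and 0.00319). Under RA Calcr was 0.48 ± 0.15 lower in sh-SIRT1 cells (adjusted p = 0.0425), and its RA effects differed between the lines by -1.52 ± 0.25 (adjusted p = 0.00836). Casd1, which lies beside Sgce, had hairpin differences of 0.11 under RA and 0.385 in vehicle (adjusted p = 0.556 and 0.139).

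Mest, a membrane protein of the alpha/beta-hydrolase family expressed in mesoderm, was measured only under RA. Its probe at chr6:30680425-30680484 (mm7, plus strand) stayed near background on all 6 vehicle arrays. In RA cells its log2 levels were -4.17, -3.44, -4.79, -5.65, -4.67 and -5.99 on the sh-SIRT1 arrays, with arrays 4 and 6 not well above background, and -4.27, -2.73, -5.75 and -5.50 on the sh-Control arrays. Arrays 1 and 2 were again the highest of each RA group, and the 2 lines overlapped. Mest was at least 1.88-fold higher with RA in sh-SIRT1 cells and at least 1.86-fold higher in sh-Control cells. The limma adjusted p-values, 9.35e-04 and 0.00252, belong to the measured differences of 2.89 ± 0.60 and 2.89 ± 0.65 from vehicle signals near background. They do not test these bounds. The probe entered the fit only through sh-Control RA, the 1 group where all arrays were well above background. With normexp background correction at the 75th percentile neither measured difference passed (0.76 and 0.93, adjusted p = 0.204 and 0.182), nor did that in sh-SIRT1 cells with normexp and quantile scaling (0.475, adjusted p = 0.0762). Such a bound takes, for each vehicle array, the dimmest signal that its scanner marks as well above background, or the probe's own where that is higher. Between the lines the difference under RA was -0.22 ± 0.55 (adjusted p = 0.817). Klf14, a transcription factor gene of the Mest domain, was at least 2.46-fold higher with RA in sh-SIRT1 cells. In sh-Control cells it was at least 1.34-fold higher. The limma adjusted p-values of its measured differences, not of these bounds, were 7.91e-08 and 9.29e-06. Other genes beside Mest did not rise with it. Cep41 lay at -1.70 to -1.20 in sh-Control RA cells, below its -0.90 to -0.87 in sh-Control vehicle cells, and its treatments overlapped in sh-SIRT1 cells. Copg2, without a value on sh-Control RA array 1, overlapped between treatments in both lines.

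Peg3, a large zinc finger protein that binds DNA, had log2 levels of 0.10, 0.46, -1.40, -0.98, -1.52 and -1.25 in sh-SIRT1 RA cells and of -1.24, 0.76, -1.78 and -1.92 in sh-Control RA cells. In vehicle it lay at -2.12, -2.22 and -2.16 in sh-SIRT1 cells and at -1.81, -1.66 and -1.55 in sh-Control cells. Sh-SIRT1 RA arrays 1 and 2 and sh-Control RA array 2 stood above all other arrays. It rose with RA in sh-SIRT1 cells (1.40 ± 0.54, adjusted p = 0.0371), a call that was lost without arrays 1 and 2 (0.88, adjusted p = 0.138) and without any 1 of these or of the 3 sh-SIRT1 vehicle arrays (adjusted p = 0.0678 to 0.0905). In sh-Control cells the RA difference was 0.63 ± 0.58 (adjusted p = 0.391). The hairpin differences of 0.28 ± 0.49 under RA and -0.50 ± 0.62 in vehicle did not pass (adjusted p = 0.740 and 0.683), though the vehicle groups did not overlap. These values come from 1 of 3 probes. Another gave differences that were off by at most 0.273, and the third, designed to a different transcript, stayed at background on all arrays. Usp29, a deubiquitinase gene of the Peg3 domain, passed in none of the 4 comparisons, with differences of -0.225 to 0.224.

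Nap1l5, a gene of the nucleosome assembly protein family that lies in an intron of Herc3, separated the 2 lines completely. Its probe at chr6:58873509-58873568 (mm7, minus strand) was well above background on all 9 sh-SIRT1 arrays and on none of the 7 sh-Control arrays. The log2 levels were -4.79, -4.47, -3.85, -3.77, -3.68 and -3.57 in sh-SIRT1 RA cells and between -8.21 and -7.92 in sh-Control RA cells. In vehicle they were -5.20, -5.39 and -5.13 in sh-SIRT1 cells and between -7.63 and -7.32 in sh-Control cells. Nap1l5 was at least 3.55-fold higher in sh-SIRT1 than in sh-Control cells under RA and at least 1.16-fold higher in vehicle. The limma adjusted p-values, 1.85e-07 and 2.07e-04, belong to the measured differences of 4.085 ± 0.205 and 2.252 ± 0.260 from sh-Control signals at background. They do not test these bounds. The probe entered the fit only through the sh-SIRT1 groups, where it was higher. With normexp background correction at the 75th percentile, which pulls dim signals together, the measured differences were 0.75 and 0.29 and neither passed (adjusted p = 0.377 and 0.991).

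Within slides the measured Nap1l5 difference was 4.44, 4.37 and 3.94 under RA on slides 1, 2 and 4 and 2.24 and 2.39 in vehicle on slides 1 and 3. In sh-SIRT1 cells RA raised Nap1l5 by 1.22 ± 0.23 (2.33-fold, adjusted p = 3.59e-04), and by normexp at the 75th percentile the difference was 0.61 and did not pass (adjusted p = 0.32). It was the only member whose RA effects differed between the lines (1.83 ± 0.33, adjusted p = 0.0112), where 3.59% of all genes were called, 1.71% higher and 1.88% lower. Since both sh-Control groups lay at background, that difference has no lower bound, and the call was lost in 6 of 32 alternative settings. The host gene Herc3, a ubiquitin ligase, did not follow Nap1l5: it was 0.69 ± 0.11 lower in sh-SIRT1 than in sh-Control cells in vehicle (adjusted p = 0.00241), and the difference under RA was -0.17 ± 0.09 (adjusted p = 0.197).

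Nap1l5 and Nnat were not well above background on most or all sh-Control RA arrays and were so on all sh-SIRT1 arrays, and both lie inside an intron of another gene. The 250 bases before their start sites are shown for that reason, from RefSeq on GRCm38.p6, 5′ to 3′ along the gene, with every CG dinucleotide, the target of DNA methylation, in capitals. The Nap1l5 window lies at chr6:58907127-58907376 on the minus strand and the Nnat window at chr2:157559828-157560077 on the plus strand.
Nap1l5: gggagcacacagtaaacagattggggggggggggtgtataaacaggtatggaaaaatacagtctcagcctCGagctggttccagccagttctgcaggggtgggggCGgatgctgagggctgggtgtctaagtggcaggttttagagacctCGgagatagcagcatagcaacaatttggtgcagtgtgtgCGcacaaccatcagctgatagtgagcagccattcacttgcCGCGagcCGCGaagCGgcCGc
Nnat: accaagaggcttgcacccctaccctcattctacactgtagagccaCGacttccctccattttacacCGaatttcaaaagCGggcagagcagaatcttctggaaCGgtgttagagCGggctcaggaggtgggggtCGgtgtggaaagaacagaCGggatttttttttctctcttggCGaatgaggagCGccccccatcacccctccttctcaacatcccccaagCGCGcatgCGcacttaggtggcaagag
The Nap1l5 window holds 10 CG dinucleotides and the Nnat window 12, against a median of 6 over 32817 RefSeq windows of the same length. Of all windows, 62.23% hold fewer than the Nap1l5 window and 66.53% fewer than the Nnat window, so neither is unusual. The letters TGCCGC, the core of the motif that ZFP57, a protein that keeps imprints, binds when it is methylated, were searched on both strands. They are in the Nap1l5 window once and not in the Nnat window, and 8.68% of all windows hold them. For 8 of the 10 members RefSeq windows were matched, 16 in all, and 3 held these letters, the Nap1l5 window and 2 overlapping windows of Mest.

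Peg12 and Snrpn lie in the domain on chromosome 7 that corresponds to the Prader-Willi region of humans. Peg12, a relative of the FRAT proteins, which inhibit the kinase GSK3 in Wnt signalling, rose with RA in both lines and was lower in sh-SIRT1 than in sh-Control cells in vehicle. Its probe at chr7:58211942-58212001 (mm7, minus strand) gave log2 levels of -1.50 to -1.20 with a median of -1.30 in sh-SIRT1 RA cells and of -1.13, -0.21, -1.21 and -1.19 in sh-Control RA cells. In vehicle it was at -4.35, -3.98 and -3.92 in sh-SIRT1 cells and at -2.95, -3.11 and -3.11 in sh-Control cells. The vehicle groups did not overlap. Under RA sh-Control array 3 lay within the sh-SIRT1 range, arrays 1 and 4 just above it and array 2 well above it. RA raised Peg12 by 2.78 ± 0.19 in sh-SIRT1 cells (6.85-fold, adjusted p = 4.28e-08) and by 2.12 ± 0.20 in sh-Control cells (4.36-fold, adjusted p = 1.85e-06). The hairpin difference was -0.37 ± 0.17 under RA (adjusted p = 0.137) and -1.03 ± 0.21 in vehicle (adjusted p = 0.0092), the last of which did not pass with normexp background correction (-0.62 at the 75th percentile and -0.47 with quantile scaling, adjusted p = 0.143 and 0.105). The RA effects differed by 0.65 ± 0.27 (adjusted p = 0.193).

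Snrpn, for the SmN protein of the splicing machinery, was the 1 member that fell with RA in both lines. Its log2 levels were 0.42 to 0.66 with a median of 0.46 in sh-SIRT1 RA cells and 1.16, 1.59, 0.99 and 1.12 in sh-Control RA cells. In vehicle they were 1.48, 1.65 and 1.66 in sh-SIRT1 cells and 2.48, 2.00 and 1.94 in sh-Control cells. No pair of groups compared overlapped, and sh-SIRT1 cells were lower in each treatment. Snrpn fell with RA by 1.09 ± 0.14 in sh-SIRT1 cells (adjusted p = 1.38e-05) and by 0.92 ± 0.15 in sh-Control cells (adjusted p = 2.13e-04). The hairpin difference was -0.71 ± 0.13 under RA (adjusted p = 0.00172), and -0.68 without sh-SIRT1 RA arrays 3 to 6, which did not pass (adjusted p = 0.0654). In vehicle the -0.54 ± 0.16 just missed the threshold (adjusted p = 0.0502) and passed with the replicate number as a block (limma adjusted p = 0.0495), as it did in 13 of 32 alternatives in all.

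The 2 Snrpn probes overlap, at chr7:55735109-55735168 and chr7:55735092-55735151 (mm7, minus strand), and are shown because they are not fully identical where they overlap. They share 43 of 60 positions and differ there at 2, A26G and G29A, counted from 1 at the 5′ end of the first probe, with the differing bases in capitals.
A_51_P168862: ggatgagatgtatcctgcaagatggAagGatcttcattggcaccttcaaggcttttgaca
A_52_P354390: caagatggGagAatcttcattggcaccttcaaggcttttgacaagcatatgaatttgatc
Their differences were nonetheless within 0.07 of each other in every comparison. With every probe tested on its own, the hairpin difference in vehicle passed for the first probe (-0.575, limma adjusted p = 0.02945). It did not for the second, which stands for the gene (-0.539, limma adjusted p = 0.05075). Snurf, which is translated from the same transcript as Snrpn, had the level most like it of all named genes, with a Pearson correlation of 0.996 over the 16 arrays. It fell with RA by 1.16 ± 0.13 in sh-SIRT1 and 0.95 ± 0.14 in sh-Control cells (adjusted p = 4.60e-06 and 1.04e-04).

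Of the other paternally expressed genes of that domain, Ndn and Magel2 rose with RA, while Snrpn fell. Ndn, for necdin, a growth suppressor of neurons, rose with RA by 1.55 ± 0.20 in sh-SIRT1 cells and 1.21 ± 0.21 in sh-Control cells (adjusted p = 1.29e-05 and 3.90e-04). Magel2, a related gene, rose by 0.78 ± 0.23 and 1.83 ± 0.25 in these lines (adjusted p = 0.00915 and 4.89e-05), and under RA it was 1.20 ± 0.21 lower in sh-SIRT1 than in sh-Control cells (adjusted p = 0.00149). Mkrn3, a ring finger gene, passed in none of the 4 comparisons, with differences of -0.28 to -0.04. Ube3a, the maternally expressed ubiquitin ligase of neurons, fell with RA by 0.53 ± 0.10 in sh-SIRT1 and 0.48 ± 0.11 in sh-Control cells (adjusted p = 4.60e-04 and 0.00255).

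Other imprinted genes moved in both directions. Over all genes, 8.59% were called higher and 11.7% lower with the hairpin under RA, and 4.41% and 4.21% in vehicle. With RA, 23% were called higher and 35.3% lower in sh-SIRT1 cells, and 19.7% and 27.2% in sh-Control cells. The counts below were not tested against these shares. Of 15 other paternally expressed genes tested, 3 rose and 2 fell with the hairpin under RA and 1 rose and 1 fell in vehicle, with median log2 differences of 0.14 and -0.05. With RA 5 rose and 3 fell in sh-SIRT1 cells and 6 rose and 3 fell in sh-Control cells, with medians of -0.03 and 0.00. Of 18 maternally expressed genes tested, 3 rose and 2 fell with the hairpin under RA, and 2 rose and 3 fell in vehicle. The largest of these was Grb10, an adaptor protein that dampens insulin and IGF signalling, at -3.61 ± 0.27 under RA and -3.25 ± 0.35 in vehicle (adjusted p = 4.84e-06 and 1.26e-04). RA raised 3 and lowered 5 of the 18 in sh-SIRT1 cells, and raised 3 and lowered 6 in sh-Control cells. Of 7 other neighbours of the members that were tested, 1 fell with the hairpin under RA and 2 in vehicle.

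Genes that keep imprints and set DNA methylation fell with RA where they changed. All 16 were tested. With RA 12 fell and none rose in sh-SIRT1 cells, with a median of -0.50. In sh-Control cells 8 fell and none rose, with a median of -0.40. Over all genes, 35.3% were called lower with RA in sh-SIRT1 cells and 27.2% in sh-Control cells. Dnmt3b, a de novo DNA methyltransferase, fell by 1.62 ± 0.16 and 1.42 ± 0.17 in sh-SIRT1 and sh-Control cells. Tet1, which oxidises methylated cytosine, fell by 1.92 ± 0.14 and 1.29 ± 0.15 in them. With the hairpin 5 fell under RA and none passed in vehicle, with medians of -0.24 and -0.10. Of all genes, 11.7% and 4.21% were called lower in these comparisons.

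Among 14 genes of IGF ligands, receptors, binding proteins and mRNA binders, 10 rose and 1 fell with RA in sh-SIRT1 cells, and 6 rose and 1 fell in sh-Control cells, the treatments under which Igf2 rose. Igfbp5, a secreted protein that binds IGF2, was at least 35.2-fold higher with RA in sh-SIRT1 cells and at least 3.61-fold higher in sh-Control cells. It was 3.05 ± 0.69 higher in sh-SIRT1 than in sh-Control cells under RA (adjusted p = 0.00738). With the hairpin 2 of the 14 rose and 2 fell under RA, and 2 fell in vehicle. Over all genes the shares called higher and lower were 23% and 35.3% with RA in sh-SIRT1 cells and 19.7% and 27.2% in sh-Control cells. With the hairpin they were 8.59% and 11.7% under RA and 4.41% and 4.21% in vehicle.

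Markers of other cell types moved with RA as well. Shares of all genes called with RA were 23% higher and 35.3% lower in sh-SIRT1 cells, and 19.7% higher and 27.2% lower in sh-Control cells. Of 19 markers of primitive and visceral endoderm tested, 14 rose in sh-SIRT1 cells and 11 in sh-Control cells, and none fell. Their mean log2 level per array was -0.98 to 0.14 in sh-SIRT1 RA and -1.52 to 1.78 in sh-Control RA cells, against -3.77 to -3.32 in sh-SIRT1 vehicle and -2.92 to -2.74 in sh-Control vehicle cells. Per array 17 to 19 of the 19 were well above background in sh-SIRT1 RA and 18 to 19 in sh-Control RA cells, against 13 to 16 in sh-SIRT1 vehicle and 14 to 16 in sh-Control vehicle cells. In the RA groups these means were highest on arrays 1 and 2, where Igf2, H19, Peg10 and Mest were highest too. The 15 markers of fibroblasts, the feeder cells often used for stem cells, averaged -0.71 to 0.20 in sh-SIRT1 RA and -1.78 to 0.15 in sh-Control RA cells, against -2.77 to -2.68 in sh-SIRT1 vehicle and -2.54 to -2.36 in sh-Control vehicle cells. Of them 12 rose with RA in sh-SIRT1 cells and 8 in sh-Control cells. Their means were also highest on arrays 1 and 2 of each RA group. These were 0.016 and 0.199 in sh-SIRT1 RA and -0.515 and 0.153 in sh-Control RA cells. The mean of the 14 genes of the IGF list was highest on arrays 1 and 2 there too (0.088 and 0.129, and -0.01 and 0.05). Of 10 neural markers, 5 rose and 2 fell in sh-SIRT1 cells with RA and 3 rose and 2 fell in sh-Control cells. Of the 17 pluripotency markers 2 rose and 11 fell with RA in sh-SIRT1 cells, and 2 rose and 10 fell in sh-Control cells. The part of these cell types in the RA differences of the members was not tested. In such bulk RNA, fewer cells of a type and less RNA per cell cannot be told apart.

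The genes with the most similar levels over the 16 arrays differed from member to member. For Igf2 they were Cryab, Krt18 and Ube2h (Pearson 0.989, 0.984 and 0.984), for Dlk1 Dusp14, Tmem171 and Gpc1 (0.987, 0.981 and 0.979), and for Peg12 Rab3b, Foxa2 and Limch1 (0.986, 0.979 and 0.978). Sgce was closest to Golm1, Lman2 and Suox (0.982, 0.976 and 0.975), and Peg10 to Ift43, Tpm4 and Lgals1 (0.972, 0.958 and 0.952). For Mest these were Col1a1, Car4 and Tnnt2 (0.962, 0.958 and 0.957), for Nap1l5 Zfp358, Trib2 and Mapk8ip3 (0.965, 0.962 and 0.956), and for Snrpn after Snurf Yes1 and Ankrd49 (0.976 and 0.973). The correlations were lowest for Peg3, with Vcl, Cttnbp2nl and Acta1 (0.942, 0.939 and 0.939), and for Nnat, with Smr3a, Abca1 and the Y-linked Eif2s3y (0.942, 0.937 and 0.936). All arrays of a group share its treatment and hairpin, so these values describe the arrays and carry no test. Igf2 and Mest, which lie on different chromosomes, correlated at 0.917, and at 0.813 in their deviations from the group means. For Mest and Peg3 these values were 0.83 and 0.858.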

How the data were processed

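RNA of the 16 samples was hybridised to 1-colour (Cy3) Agilent arrays for the mouse genome, on which 43379 of the 45018 spots are no controls. The deposited scanner files hold intensity values, made by the authors with Feature Extraction 9.5 per the submitters' processing notes (9.5.3.1 per the file headers). Per the file headers a spatial and a multiplicative trend were removed, and surrogate values replaced signals too near background, which limits differences between dim signals. The series value table equalled these processed intensities on all 45018 spots, with column medians of 46.0 to 91.4, so its scale is linear and uncentred. Probe positions are on mm7, per the file headers. The exon or untranslated region of a probe was not analysed here.

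Control spots were left out, 87 to 131 outlier spots per array were set to missing, and at most 4 spots per array were saturated. The log2 intensity minus that of the array's 75th percentile was averaged over spots of a probe. Probes well above background (on at least 0.5 of their spots) on all arrays of at least 1 group were kept, 26373 of 41174, including 15 of the 16 member probes. The kept probe with the highest mean stood for each of 18281 genes, all 10 members among them. Symbols came from the files for members and otherwise from the RefSeq table through accessions. Group means were fitted with limma 3.58.1 in R 4.3.3 (lmFit, eBayes, all 16 arrays, 12 residual degrees of freedom, two-sided), and p-values were adjusted over all genes by the Benjamini-Hochberg method. The pipeline was tested on simulated data. Of 100 genes changed by 1 log2 unit, 65 to 69 were recovered in the 4 comparisons of 2 groups and 39 for the difference of the RA effects. Of 100 changed by 2 units, 88 to 94 and 72 were recovered. False calls among unchanged genes numbered 23 for the hairpin in vehicle and 6 to 12 otherwise. Slides were numbered from the barcodes and tested as batches. Arrays of the same replicate number in both lines deviated together from their group means (correlations 0.43 to 0.54 under RA and 0.36 to 0.51 in vehicle). Arrays of different numbers were not compared in this way, so whether the number itself pairs them was not tested. The block on this number is given where it changes a call. Across treatments the numbers did not pair the arrays (correlations -0.21 to 0.22).

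All 10 members and their probes were to be named, with the 3 genes most alike over the arrays. Of each gene list, named genes were up to 4 per comparison with an adjusted p under 0.05 and a log2 difference of at least 1, and those sharing a domain with a member. The members, lists and tests were chosen with earlier results of these data known. The median RA difference of all genes in sh-SIRT1 and sh-Control cells was -0.13 and -0.14, and 0.04 and -0.04 with the percentile taken over probes well above background on all arrays, so changes are read relative to these shifts.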

Additional observations from a re-analysis of the deposited data

Results flagged for a closer look

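The arrays of sh-SIRT1 RA, a group of 6, and sh-Control RA, a group of 4, were searched for a value far from the rest of its group. Over the 20 combinations of member and RA group, 2 stood out, both in the group of 4. The members share arrays, so the combinations are not independent and the count cannot be set against a chance rate. Nnat on sh-Control RA array 1 had a log2 level of -0.929, with 0.93 of the group's range between it and the next array, because arrays 2 to 4 were not well above background. Peg12 on sh-Control RA array 2 was at -0.209, with 0.923 of the range below it, and this array was also the highest of its group in Peg3, Mest, Sgce and Snrpn.

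For Nap1l5 the RA effects of the lines differed by 1.833 in a direct test (limma adjusted p = 0.0112), the only such difference among the members. All 7 sh-Control arrays, with or without RA, had Nap1l5 signals too dim to be marked as well above background.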

How the results depend on the processing

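The number of members called for the hairpin under RA, for RA in sh-SIRT1 cells and for RA in sh-Control cells stayed within 1.5 times of its value under every alternative run. The vehicle count of 3 was 1 with normexp background correction at the 75th percentile. It was 5 with the replicate number as a block within treatment, and 6 with only the groups compared, with array weights and with sh-Control RA array 1 alone. Leaving out each array in turn it ranged from 3 to 6, the highest without sh-Control RA array 1. The count of 1 for the difference of the RA effects was 0 with normexp (with quantile or 75th percentile scaling), quantile normalization, the slide as a fixed block, the replicate block within hairpin line and sh-Control RA array 1 alone. It was 8 with array weights, 2 without sh-SIRT1 RA arrays 1 and 2, and 1 to 2 leaving out each array in turn, with 2 without sh-Control RA array 1 or 2 or sh-SIRT1 RA array 1. Over all genes the replicate block gave 3513 calls in vehicle and 1656 for the difference, against 1576 and 657. Array weights gave 9547 and 9748, and normexp at the 75th percentile 270 and 22. The block within treatment added calls of Peg10 and Snrpn in vehicle and of Igf2 under RA and changed no other call of a member.

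These differences changed sign. Mest with the hairpin in vehicle was 0.110 with normexp and quantile and 0.185 with quantile scaling, and under RA 0.047 with the replicate block, 0.479 with array weights and 0.756 without sh-SIRT1 RA arrays 3 to 6. Under RA the hairpin difference of Igf2 was -0.294 with sh-Control RA array 1 alone, and that of Peg3 -0.245 without sh-SIRT1 RA arrays 1 and 2. In sh-Control cells the RA difference of Nnat was 0.907 with array 1 alone and 1.251 within slide 4, that of Peg3 -0.179 with array weights, and that of Nap1l5 0.151 with normexp at the 75th percentile. The difference of the RA effects of Igf2 was -0.053 with the slide as a fixed block and -0.858 with array 1 alone. For Sgce it was -0.039 with the slide, -0.115 with the replicate block within hairpin line and -0.035 with another probe. For Peg10 it was -0.746 with array 1 alone and -0.091 without sh-SIRT1 RA arrays 1 and 2. For Mest it was -0.221, -0.169 and -0.402 with normexp and quantile, normexp at the 75th percentile and quantile scaling, -0.286 with array 1 alone and -0.487 without sh-SIRT1 RA arrays 1 and 2. Leaving out each array in turn, the hairpin difference under RA ranged from -0.618 to 0.388 for Mest and from -0.015 to 0.877 for Peg3. The difference of the RA effects then ranged from -0.122 to 0.373 for Sgce, from -0.027 to 0.717 for Peg10 and from -0.392 to 0.613 for Mest. None of these was called in the main setting except the fall of Nnat, and the causes were not tested.

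With sh-Control RA array 1 alone, that array has to borrow its spread from the other groups. The alternatives that leave out sh-SIRT1 RA arrays, that array alone and the block within hairpin line were chosen after seeing the data. Signal over background limits Nap1l5, Mest, Peg10 and, in sh-Control RA cells, Nnat.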
